A study of Drosophila melanogaster with 3 samples.

Results

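The genes described are the Drosophila melanogaster long non-coding RNA (lncRNA) and antisense RNA (asRNA) genes that had a binding peak of the GFP-tagged protein CG3838, the product of the gene brickwall (brwl), at their promoter. A gene was taken when its Ensembl symbol starts with lncRNA: or asRNA: and a peak summit of the authors' replicate-thresholded list on dm6 lay within 500 bp of one of its annotated transcription start sites (TSSs). By this rule 107 of 2448 such genes were members, 80 of 1945 lncRNA genes and 27 of 503 asRNA genes, and 115 peaks lay at them. Members were thus selected on the summit positions and on the signal ranks behind the threshold, so the presence of a peak at these genes is how they were found and not a result. All 107 carry the biotype ncRNA in the annotation. The share called was 4.37% of lncRNA and asRNA genes, beside 11.6% of protein-coding genes and 9.68% of all 18277 genes.

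Chromatin bound by the tagged protein was immunoprecipitated and sequenced (ChIP-seq) in 3 biological replicates, which form the only group. All were whole embryos of mixed sex, collected over 0 to 24 h, from a stable transgenic line with CG3838 carrying GFP at its C-terminal end. The labels describe the antibody as recognising GFP, although the antibody field names CG3838, and chromatin was sonicated to 200 to 800 bp. Embryos of all stages and tissues were pooled by this collection, so the cells in which a site was bound cannot be told apart, and no line without the tag was analysed here. The lists hold no read counts and their depth is unknown. The list of replicate 3 stands apart in holding 21147 regions where the other lists hold 30000, with 25 mitochondrial regions among its strongest 2239, and each result on replicate support is given by replicate for this reason.

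Long non-coding RNA genes are transcribed into RNAs without a long translated reading frame, and asRNA genes lie on the strand opposite another gene. In the compact fly genome many of them start beside or inside a protein-coding gene, sometimes from a promoter that also fires in the other direction. A ChIP-seq peak has no strand, so a summit between start sites that lie close together cannot be given to one of them. A few fly lncRNAs have known functions. Hsromega makes nuclear RNA that gathers RNA-binding proteins under stress, and flam is a cluster of transposon fragments read into piRNAs, small RNAs that silence retrotransposons in the somatic cells of the ovary.

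The sequences below are windows reaching 100 bp to each side of the strongest summit of 9 of the members the results turn on, read from the forward strand of dm6, 5′ to 3′. They show the strongest peak (lncRNA:CR44149), which is shared with a coding promoter, another shared peak whose lncRNA and coding gene have the same start (lncRNA:enrr), the strongest peaks away from coding promoters (lncRNA:CR31840 and lncRNA:CR31044), 3 of the 5 windows holding the DRE core described below (lncRNA:CR43496, asRNA:CR45865 and asRNA:CR44982), and the named lncRNAs Hsromega and flam. Capitals mark matches on either strand. The DRE core is TATCGATA, which holds the shorter site CGATA within it. The E-boxes searched were CAGCTG and also CACGTG. The GAGA motif was GAGAG and the TATA box was TATAAA. Matches that touch run together.
lncRNA:CR44149, chr2L:9568333-9568533: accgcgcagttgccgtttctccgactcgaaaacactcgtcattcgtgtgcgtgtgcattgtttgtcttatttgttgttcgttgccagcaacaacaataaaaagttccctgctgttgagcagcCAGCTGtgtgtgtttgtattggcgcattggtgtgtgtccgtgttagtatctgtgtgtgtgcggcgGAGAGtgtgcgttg
lncRNA:CR31840, chr2L:14024040-14024240: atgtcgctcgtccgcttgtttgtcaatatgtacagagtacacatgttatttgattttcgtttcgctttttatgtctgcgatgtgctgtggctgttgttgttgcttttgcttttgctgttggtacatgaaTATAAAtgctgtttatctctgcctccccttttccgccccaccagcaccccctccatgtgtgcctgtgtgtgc
lncRNA:CR31044, chr3R:29214342-29214542: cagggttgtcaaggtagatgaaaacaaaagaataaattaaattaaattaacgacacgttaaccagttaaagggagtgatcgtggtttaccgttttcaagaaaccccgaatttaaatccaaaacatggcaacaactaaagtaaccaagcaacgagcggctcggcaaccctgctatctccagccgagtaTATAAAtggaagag
lncRNA:enrr, chrX:523396-523596: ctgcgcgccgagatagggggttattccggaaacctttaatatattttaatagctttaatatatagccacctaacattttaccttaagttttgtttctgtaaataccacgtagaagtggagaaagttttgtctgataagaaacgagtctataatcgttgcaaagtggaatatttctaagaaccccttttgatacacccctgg
lncRNA:CR43496, chrX:6759472-6759672: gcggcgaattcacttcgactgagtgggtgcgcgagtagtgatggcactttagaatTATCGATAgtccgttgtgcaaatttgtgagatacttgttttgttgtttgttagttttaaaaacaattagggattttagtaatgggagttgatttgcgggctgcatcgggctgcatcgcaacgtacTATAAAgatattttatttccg
asRNA:CR45865, chr3L:16612285-16612485: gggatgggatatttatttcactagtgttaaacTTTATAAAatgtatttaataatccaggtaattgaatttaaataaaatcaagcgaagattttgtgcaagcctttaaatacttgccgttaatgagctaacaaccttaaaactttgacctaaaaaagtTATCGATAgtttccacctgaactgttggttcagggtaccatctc
asRNA:CR44982, chr2L:2375704-2375904: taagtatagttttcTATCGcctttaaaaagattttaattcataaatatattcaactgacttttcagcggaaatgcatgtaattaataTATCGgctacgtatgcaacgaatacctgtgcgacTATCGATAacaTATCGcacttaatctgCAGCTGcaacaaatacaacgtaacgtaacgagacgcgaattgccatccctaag
lncRNA:Hsromega, chr3R:21296256-21296456: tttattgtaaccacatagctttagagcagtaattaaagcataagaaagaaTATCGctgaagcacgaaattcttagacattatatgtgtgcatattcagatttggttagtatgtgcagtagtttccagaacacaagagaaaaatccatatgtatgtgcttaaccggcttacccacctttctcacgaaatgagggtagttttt
lncRNA:flam, chrX:21631616-21631816: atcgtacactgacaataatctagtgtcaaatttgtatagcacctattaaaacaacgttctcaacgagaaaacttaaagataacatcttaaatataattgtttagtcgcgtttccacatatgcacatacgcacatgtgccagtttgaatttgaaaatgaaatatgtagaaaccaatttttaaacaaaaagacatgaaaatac

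The strongest peak in the list lay at lncRNA:CR44149, a single-exon gene of 631 bp on 2L from 9568155 to 9568785, reverse strand, whose TSS is 105 bp from that of brwl, transcribed the other way. Its strongest summit had an authors' signal of 1796, rank 1 of 2239. The overlapping regions in the replicates' own lists had signals of 694.8, 859.8 and 424.3 in replicates 1, 2 and 3 and ranked 1, 1 and 21. This gene held 3 summits within 1 interval, so they share 1 replicate match. In replicate 3, 19 of the 20 regions of higher signal were mitochondrial. Signals have their own scale in each list, so replicates are compared by rank. Every replicate 3 rank given here counts the mitochondrial regions above it. The line carries a tagged copy of CG3838, and whether that copy adds to the signal at brwl was not tested; without 10 kb around brwl 106 genes and 112 peaks remained.

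**Figure D1:**
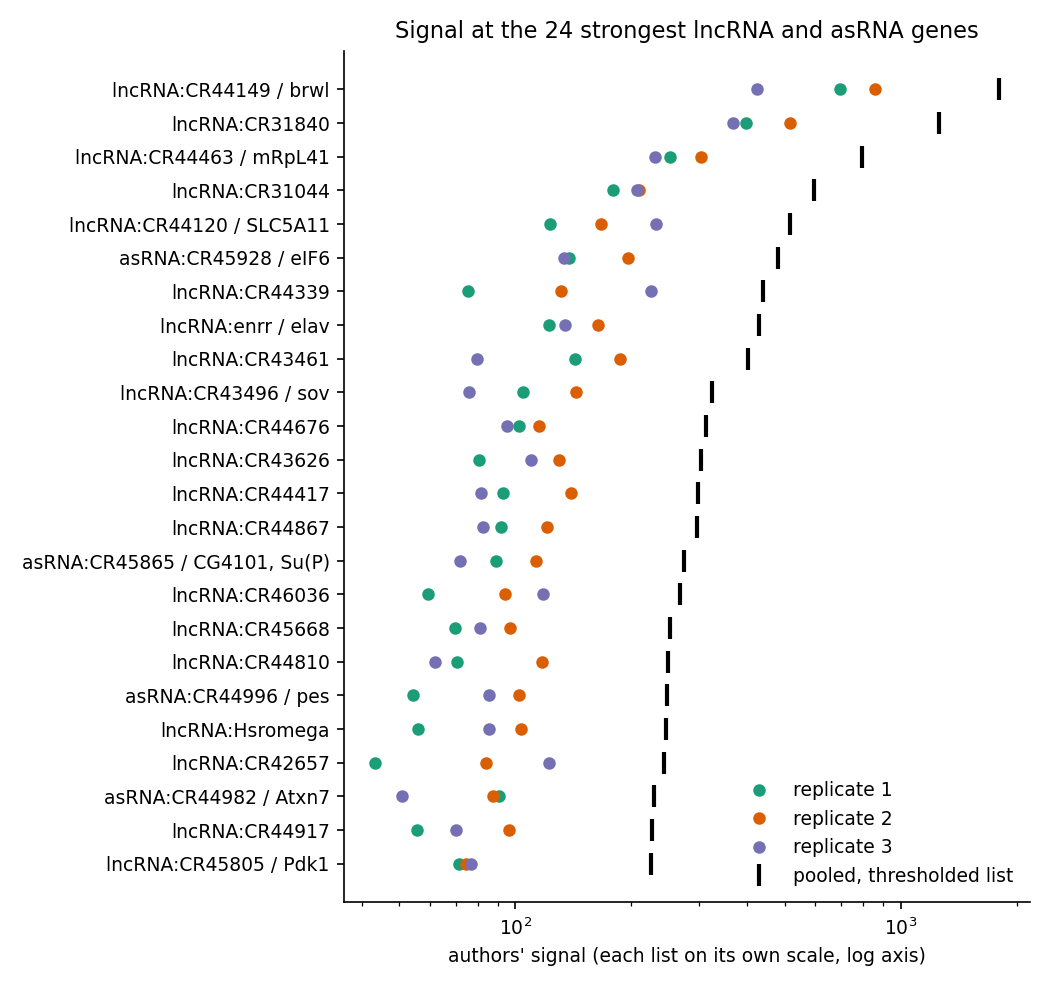
Authors' signal at the 24 members of highest pooled signal, with coding genes that share the strongest peak after the slash; points are the 3 replicates' own lists, black bars the pooled thresholded list, on a log axis, and the lists have separate scales. Pooled signals run from 224.7 at lncRNA:CR45805 to 1796 at lncRNA:CR44149. Within replicate 1, lncRNA:CR44339 lies at 75.1, below lncRNA:enrr at 122.1, although its pooled signal is higher.

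The next strongest member stood away from any coding promoter. lncRNA:CR31840, 378 bp on the reverse strand of 2L from 14023722 to 14024099, had 2 summits, the stronger 41 bp upstream of its TSS with a signal of 1258 (rank 8) and replicate values of 396.1, 515.1 and 367.6. The nearest coding TSS, that of hll, was 2861 bp away. lncRNA:CR31044, a 5106 bp gene on 3R, had its summit 120 bp upstream of the TSS with a pooled signal of 594.1 and replicate signals of 179.2, 209.9 and 207.3. Its nearest coding TSS, that of the elongation factor gene eEF1gamma, was 5730 bp away. In both genes the summit lay on the promoter side of the lncRNA start and nearer to it than to the TSS of any other gene, and all 3 replicates ranked the region among their strongest 2239.

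Other members without a coding TSS at their strongest peak differed in how alike their ranks were between replicates. The lncRNA:CR44339 summit, 4158 bp from the nearest start of the Polycomb group gene Psc, had a pooled signal of 439.0. Its replicate values were 75.1, 131.7 and 224.3, at ranks 342, 198 and 47 of replicates 1, 2 and 3. lncRNA:CR43461 had 2 peaks with summits in an intron of CG3168. The stronger had 402.8 in the pooled list and 143.2, 186.6 and 79.3 in the replicates, at ranks 77, 87 and 431. Both peaks matched the same region of every replicate, and the letters caacattgaa recur throughout the window on the stronger summit. lncRNA:CR44676 had 312.9 in the pooled list and replicate values of 101.9, 115.1 and 94.9. Its ranks of 169, 265 and 279 were the most alike of the 3 genes. Its summit lay 386 bp downstream of the TSS, beyond the 3′ end of this 371 bp gene. lncRNA:CR43626 followed with 303.6 and lncRNA:CR44417, its summit in an intron of Mapmodulin, with 297.8. The lncRNA:CR44867 summit (295.8) lay in an intron of beat-Ib, of the beaten path family of axon guidance proteins. That of lncRNA:CR46036 (267.2) lay in an intron of osa, a subunit of the Brahma chromatin remodelling complex. The lncRNA:CR44810 summit (248.6) lay 4565 bp from a start of slbo, the C/EBP factor of border cell migration. The strongest peaks of all 8 members were found among the strongest 2239 regions of each replicate. lncRNA:CR45404 had 2 summits, of 194.1 and 170.7, and so had lncRNA:CR44380, of 191.0 and 107.3, both at no coding TSS. In each of these genes the 2 summits matched the same region of every replicate. The support of all 3 replicates was thus shared by the 2 summits and not separate for each. Among the strongest asRNA genes, asRNA:CR46044, its summit in an intron of the septin gene Septin2, had 188.7 and the support of all 3. The asRNA:CR45908 peak, its summit in an intron of CG1943, had 177.3. It ranked 449, 909 and 3496, outside the strongest regions of replicate 3.

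Of 14 known lncRNA genes matched in the annotation out of 32 names listed, Hsromega and flam were members. Hsromega, 21710 bp on 3R from 21296127, had a summit 229 bp downstream of its TSS with a signal of 246.7 (rank 367) and replicate values of 55.8, 103.7 and 85.5, in all 3 replicates' strongest regions. The flam peak lay 175 bp upstream of the start of the 158841 bp cluster, with a signal of 124.9 (rank 1568) and replicate values of 37.0, 52.2 and 36.5. It was among the strongest regions of replicates 1 and 2 and not of replicate 3. The nearest coding TSS to it was that of DIP1, 1568 bp away. A weaker pooled region of signal 44.1 lay at yar, and the other 11, among them roX1 and roX2 of dosage compensation and bxd and iab8 of the bithorax complex, had no pooled region within 500 bp, which is a statement about the authors' called regions and not about reads.

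Member peaks had about the signal of other promoter peaks. Their median signal was 155.4 (quartiles 126.1 and 220.7), beside 152.5 for the 1157 promoter peaks at no lncRNA or asRNA TSS and 148.5 for all 2239 peaks. The strongest 500 peaks held 31 of the 115, or 27.0%, and 289 of the 1157. Peaks at lncRNA genes had a median of 158.9 and those at asRNA genes of 142.3. The median was 150.7 for the 53 member peaks that also lay at a coding TSS and 164.8 for the 62 that did not. The ranges overlap from the threshold upward, and these values are given as a description because the threshold chose them.

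Members at the edges of the rule show what it left out. Just inside the signal threshold were lncRNA:CR45585 (104.0), lncRNA:CR43399 (104.6), lncRNA:CR45422 (104.8) and asRNA:CR45134 (104.9). Just outside it lay pooled regions at asRNA:CR43629 (102.3), lncRNA:CR45888 (100.2), lncRNA:CR44757 (99.7) and lncRNA:CR44060 (98.4). At the distance limit asRNA:CR45927 and lncRNA:CR45681 were inside at 497 bp, asRNA:CR44996 at 492 bp and lncRNA:CR44409 at 483 bp. lncRNA:CR44366 at 501 bp, lncRNA:CR44991 at 504 bp, lncRNA:CR44619 at 510 bp and lncRNA:CR44363 at 518 bp were outside, with signals of 110.2, 110.1, 670.5 and 323.9. A window of 250 bp gave 56 genes and one of 1000 bp gave 165. Below the threshold, 340 further lncRNA and asRNA genes had a weaker pooled region in the window, 13.9% of the class, with a median signal of 53.8, beside 26.6% of protein-coding genes.

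Replicate support was similar at members and at other promoter peaks. Of the 115 member peaks, 86.1%, 84.3% and 75.7% overlapped by at least 1 bp one of the strongest 2239 regions of replicates 1, 2 and 3, a mean of 82.0% ± 5.59 (SD, n = 3). Promoter peaks at no member gave 81.5%, 81.5% and 79.3%, or 80.8% ± 1.30 (SD, n = 3). The difference was +4.58, +2.84 and −3.60 percentage points, with a mean of 1.27 ± 4.31 (SD, n = 3), so its sign was not shared and it was smaller than the spread between replicates. With 3 replicates an exact sign-flip permutation test, two-sided, cannot go below p = 0.25. The lists of all 3 replicates held 66 of the 115 peaks (57.4%), and the share followed rank: 30 of 31 in the strongest 500, 33 of 54 from rank 501 to 1500, and 3 of 30 below. The promoter peaks at no member gave 286 of 289, 331 of 501 and 40 of 367 in the same ranks. Among the 3 member peaks below rank 1500 were the weaker summits of lncRNA:CR45668 (rank 1552) and lncRNA:CR44380 (rank 2099). These carried the replicate matches of the stronger summit of the same gene, so their support was not separate evidence. How often this occurred at other promoter peaks is not given here.

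**Figure D2:**
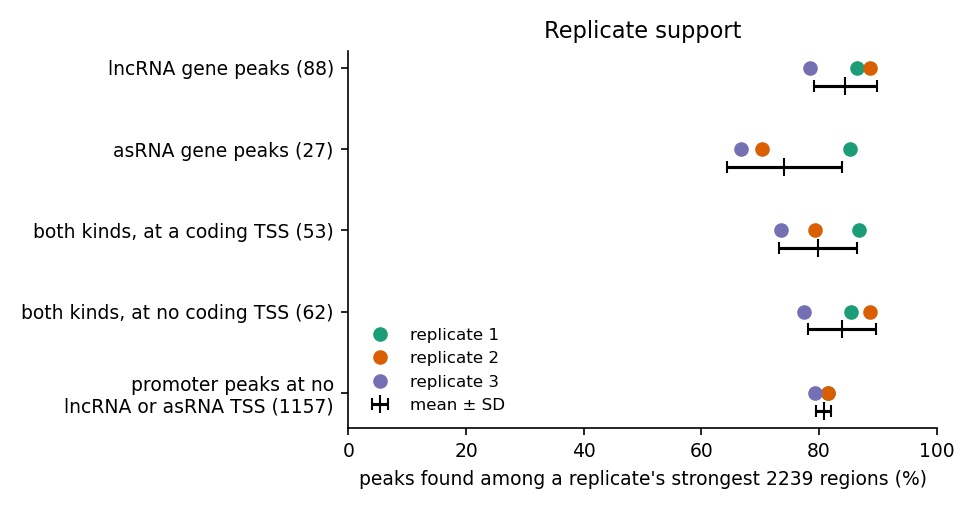
Percent of peaks overlapped by one of the strongest 2239 regions of each replicate (points), with the mean ± SD of the 3 replicates below them; the number of peaks is in brackets. Replicate 3 is lowest in every row, and the widest spread is that of the 27 asRNA peaks, from 66.7% to 85.2%.

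Peaks at lncRNA genes were supported at 84.5% ± 5.37 and those at asRNA genes at 74.1% ± 9.80 (SD, n = 3). The asRNA peaks were lower in each replicate, at 85.2% against 86.4%, 70.4% against 88.6% and 66.7% against 78.4%. The ranges of mean ± SD overlap, but both kinds were measured in the same 3 replicates. Of the asRNA peaks 14.8% were in the strongest 500, against 30.7% of the lncRNA peaks. Whether rank accounts for the lower support was not tested. The least supported peaks were near the threshold. asRNA:CR45134, which faces a start of whd, a carnitine palmitoyltransferase gene, had replicate signals of 27.6, 41.3 and 34.2, and no replicate placed it in its strongest 2239 regions. A further 11 peaks had the support of 1 replicate. Among these was asRNA:CR42254, divergent from a start of the insulator protein gene BEAF-32 (122.9 in the pooled list, 37.3, 38.5 and 36.3 in the replicates). Others were asRNA:CR44416 at OstDelta (117.3), lncRNA:CR46243 (118.8), lncRNA:CR45595 (118.7), lncRNA:CR44022 (111.6) and lncRNA:CR46094 (110.3). With any rank allowed, all member peaks overlapped a region in replicates 1 and 2, and 99.1% did in replicate 3.

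Protein-coding neighbours shared a peak with 50 of the 107 members, or 46.7% (exact Clopper-Pearson 95% interval 37.0 to 56.6, counting error only). The share was 30 of 80 lncRNA members (37.5%) and 20 of 27 asRNA members (74.1%). These shares count a coding TSS within 500 bp of the summit, so the start sites of a pair can be farther apart than that. Measured from TSS to TSS instead, 41 of the 107 members (38.3%) had a coding TSS within 500 bp. The same measure gave 17.2% of the lncRNA and asRNA genes without a peak. Peak or no peak, it gave 13.4% of all lncRNA genes and 36.2% of all asRNA genes. Of the promoter peaks at no member 99.3% lay at a coding TSS, which follows from how they were defined. By each coding gene's TSS nearest the summit, 32 of the 50 were divergent, starting on the opposite strand and pointing away from that TSS. Another 13 were facing, starting on the opposite strand and pointing towards it, and 5 lay on the same strand. A member with several neighbours was counted once, in the order divergent, facing, same strand. Same-strand combinations of a summit, a member and a coding gene numbered 12. The TSS used can lie inside the coding gene. Divergent members at sov, Pdk1, Sin3A, ci, svr and BEAF-32 overlapped that gene on the opposite strand. The neighbours were 57 coding genes, and 7 members shared with 2 or more. Members without a coding TSS at any of their peaks numbered 57, 50 lncRNA and 7 asRNA genes.

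The divergent neighbours covered many functions. They included sov, a heterochromatin and ovary gene, beside lncRNA:CR43496 (signal 323.5, replicates 104.9, 143.4 and 75.8). eIF6, a ribosome biogenesis and translation factor, shared its peak with asRNA:CR45928 (480.9, replicates 137.7, 196.3 and 133.7). The sov peak ranked 161, 162 and 474 in replicates 1, 2 and 3 and the eIF6 peak 86, 74 and 134, so both ranked lower in replicate 3. Other divergent pairs were Atxn7 of the SAGA complex with asRNA:CR44982 (229.6), Pdk1 of insulin signalling with lncRNA:CR45805 (224.7), the corepressor Sin3A with lncRNA:CR30055 (179.3), the Notch target E(spl)m3-HLH with lncRNA:CR43644 (169.7) and ci, the Hedgehog pathway factor, with asRNA:CR43957 (155.4). asRNA:CR43257 (179.1) was divergent from Reg-5. pes, a scavenger receptor gene, shared a peak with asRNA:CR44996 (247.5). lncRNA:CR45668 met the cytoplasmic actin gene Act5C through its second peak (125.5), while its stronger peak (252.0) lay at no coding TSS.

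Facing and same-strand neighbours were fewer. asRNA:CR45865 lies opposite CG4101, and its peak was at starts of CG4101 and Su(P), with a signal of 274.4 and replicate values of 89.0, 113.1 and 71.7. asRNA:CR45135 faced a TSS of lola, a BTB transcription factor gene (178.5), lncRNA:CR45593 that of Ama, which encodes an adhesion protein (170.7), and lncRNA:CR45463 that of the histone chaperone gene Daxx, whose peak was also at Sec61alpha of the translocon (181.2). On the same strand, lncRNA:CR44463 shared its peak with mRpL41, a mitochondrial ribosomal protein gene, at 792.4 and replicate values of 252.2, 303.5 and 229.9. lncRNA:CR44120 shared one with SLC5A11, a solute transporter gene, at 517.0 and replicate values of 122.8, 167.3 and 232.1. lncRNA:enrr has the same annotated TSS position as a transcript of elav, the neuronal RNA-binding protein gene, and its peak 270 bp upstream of both had a signal of 429.0 with replicate values of 122.1, 164.1 and 134.4. In replicates 1, 2 and 3, mRpL41 ranked 20, 28 and 45, SLC5A11 118, 116 and 42 and enrr 119, 122 and 133. The replicate 3 ranks count its mitochondrial regions, which held 19 of its 20 strongest places.

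Where the summit was shared, it was usually placed upstream of the coding gene. Over 60 combinations of a summit, a member and a coding gene, the summit was upstream of the coding TSS in 52 (86.7%) and closer to the member's TSS in 23 (38.3%). The TSS nearest to the summit belonged to a coding gene in 34 of the 53 shared peaks (64.2%). In the 34 divergent combinations the TSSs were a median of 252.5 bp apart and the summit lay between them in 22. Counting upstream as negative, the median summit position in the 14 facing ones was 347.5 bp from the member's TSS and −63.5 bp from the coding TSS. In the 12 same-strand ones these medians were 193.5 bp and −153.5 bp.

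**Figure D3:**
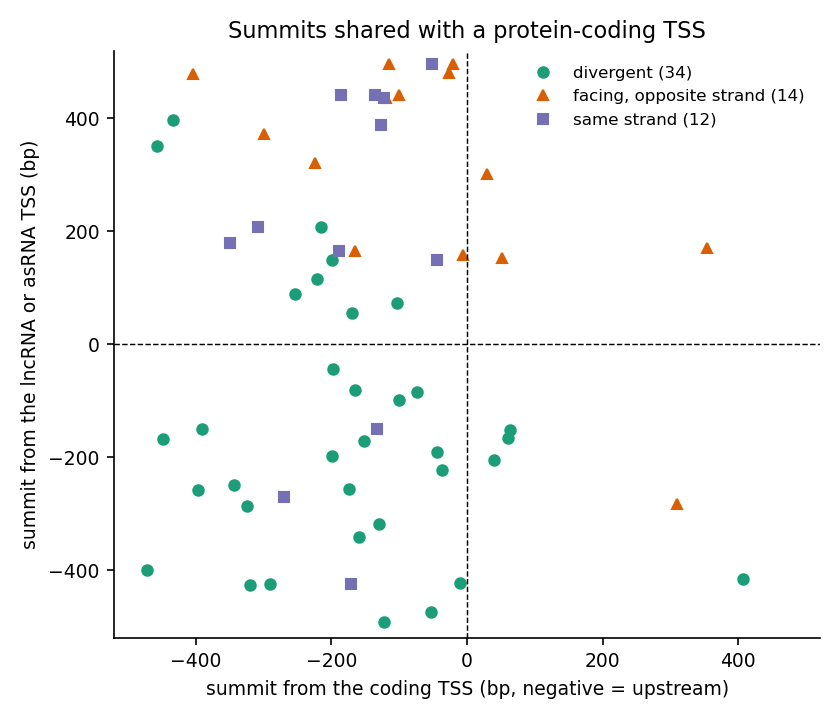
Summit position from the coding TSS (x axis, bp) and from the lncRNA or asRNA TSS (y axis, bp) for the 60 shared combinations, by arrangement; negative is upstream of the gene named. In 52 the summit is left of the coding TSS, whereas the member's TSS has summits on both sides.

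Summits at members were spread across the window rather than gathered upstream of the start. Over the 107 members the strongest summit lay at a median of −79 bp from the nearest TSS of the gene (quartiles −258 and 245.5 bp, upstream negative), and 59 (55.1%, interval 45.2 to 64.8) were upstream. Within 200 bp of the TSS were 40, or 37.4%, beside 40.1% of the positions of the window. The 1625 protein-coding genes with a peak had a median of −135 bp, with 86.2% upstream and 68.0% within 200 bp. The median distance without regard to side was 257 bp at members and 146 bp at coding genes. Members without a coding TSS at a peak had 31 of 57 upstream (54.4%) and those with one 28 of 50 (56.0%), so both kinds showed the spread. How well the annotated start of each lncRNA marks where transcription begins was not tested.

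**Figure D4:**
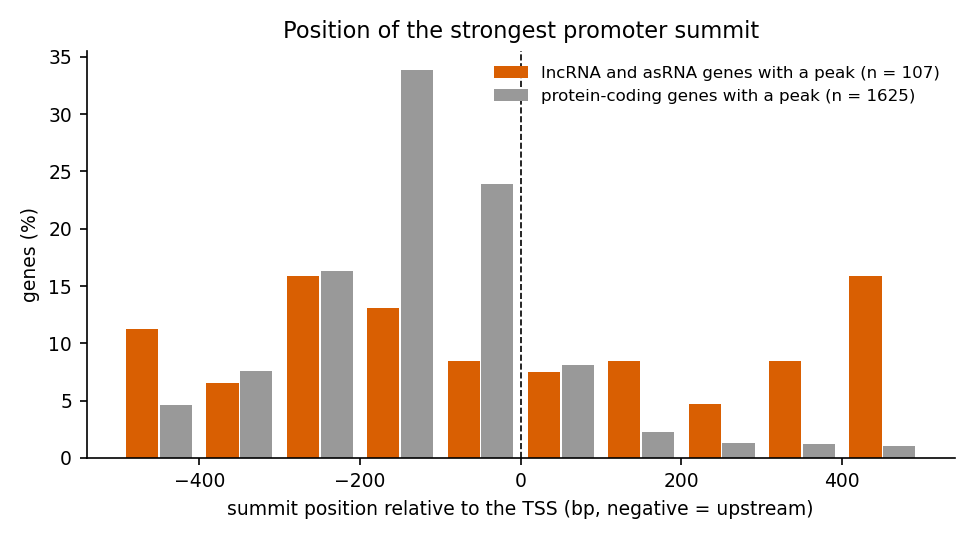
Percent of genes by position of the strongest promoter summit, in 100 bp steps from the TSS, for the 107 members and the 1625 protein-coding genes with a peak. Between 100 and 200 bp upstream lie 33.8% of coding genes and 13.1% of members, and between 400 and 500 bp downstream 1.05% and 15.9%.

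Distance was also counted over all genes, a measure that reaches beyond the window of the rule. Here genes near a coding TSS differed from those without one. In steps of 250 bp from a TSS, the share of protein-coding genes with a summit of a replicate's strongest 2239 regions was 8.94% ± 0.716 in the first step, 3.74% ± 0.276 in the second and 1.62% ± 0.130 in the fourth, at 750 to 1000 bp (mean ± SD, n = 3). For the 2005 lncRNA and asRNA genes with no coding TSS within 500 bp these shares were 1.56% ± 0.236, 1.91% ± 0.144 and 1.16% ± 0.0762, and at 1000 to 1250 bp 1.68% ± 0.175. The first step was below the second in replicates 2 and 3 and equal to it in replicate 1. For the 443 with a coding TSS nearby they fell from 5.19% ± 0.984 through 3.84% ± 0.451 to 2.11% ± 0.130. The 1227 genes over 2500 bp from any coding TSS had 1.30% ± 0.294, 1.41% ± 0.205 and 0.435% ± 0.170, and 1.01% ± 0.0471 at 1000 to 1250 bp. Compared with the step from 1000 to 1250 bp, the first step was higher in all 3 replicates for coding genes. It was lower in all 3 for the 2005 genes, and for the 1227 genes higher in replicates 1 and 2 and equal in replicate 3. For the 2005 genes that outer step had the highest mean beyond 500 bp. Compared with the step from 750 to 1000 bp, the first step was higher in all 3 replicates for each of these sets. The direction for the 2005 genes thus depended on the step chosen.

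**Figure D5:**
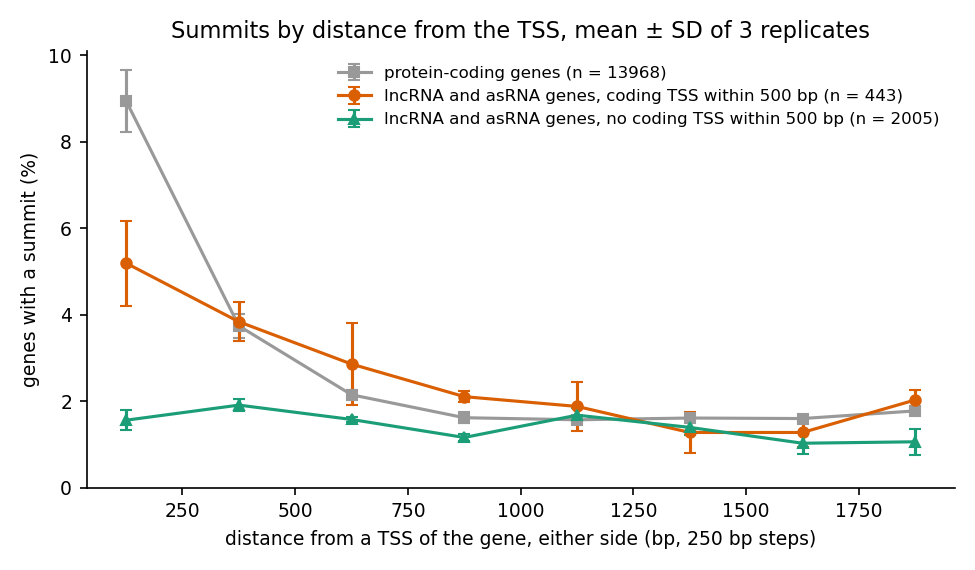
Percent of genes with a summit in each 250 bp step of distance from a TSS, on either side, as mean ± SD of the 3 replicates' own strongest 2239 regions. Coding genes fall from 8.94% to 1.62% over 1000 bp, lncRNA and asRNA genes near a coding TSS from 5.19% to 2.11%, and those without one range between 1.03% and 1.91% over 2000 bp.

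Being a neighbour of a coding promoter went with having a peak. Of the lncRNA and asRNA genes whose own TSS lay within 500 bp of a coding TSS, 41 of 443 (9.26%) were members, against 66 of 2005 (3.29%) of the others. The replicates' own lists gave 8.58% ± 0.451 and 3.24% ± 0.180 (SD, n = 3), a difference larger than the spread between replicates and of the same sign in all 3. Coding genes with a lncRNA or asRNA TSS within 500 bp had a peak in 15.0% (69 of 461), beside 11.5% of other coding genes. For coding genes near another coding TSS and no lncRNA it was 23.3%, and for those with neither 6.14%. The window of a gene beside another start site covers part of both promoters, and gene-to-gene differences in use of these promoters were not measured here.

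Peaks at no coding TSS were 62, of which 39 lay outside coding genes, 23 in introns and 0 in exons (up to 5.78% by the interval). Their nearest coding TSS was a median of 2490.5 bp away, from 535 to 49272 bp, with 54 beyond 1 kb and 21 beyond 5 kb. The farthest was at lncRNA:CR46006, a 43950 bp gene (signal 159.2, replicates 47.7, 60.3 and 56.6), in all 3 replicates' strongest regions. The lncRNA:CR44917 peak was 30827 bp from the nearest coding TSS with a signal of 226.3, and also had all 3 replicates. These 62 peaks had replicate support of 83.9% ± 5.82 and the 53 at a coding TSS 79.9% ± 6.63 (SD, n = 3), without a shared sign, since the latter was higher in replicate 1. In gene structure the members resembled lncRNA and asRNA genes without a peak, with a median length of 757 bp beside 718 bp and 56.1% beside 62.5% with a single exon. A coding gene lay across 46.7% of members on the opposite strand and across 35.2% of the others.

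The DRE core TATCGATA, the site of the core promoter factor DREF, was in 5 of the 115 windows on member summits, of the size shown above (4.35%, interval 1.43 to 9.85), all 5 among the 53 shared with a coding TSS and 0 among the other 62. These were the windows at lncRNA:CR43496 with sov, asRNA:CR45865 with CG4101 and Su(P), asRNA:CR44982 with Atxn7, asRNA:CR45928 with eIF6 and asRNA:CR44416 with OstDelta, the first 3 of them printed above. The share was 6.91% in windows on promoter peaks at no member, 0.854% at TSSs of lncRNA and asRNA genes without a peak and 6.20% at the TSSs of all genes. The shorter CGATA, which every DRE core contains, was in 25 of 53 shared windows (47.2%) and in 7 of 62 others (11.3%), beside 36.2% on promoter peaks at no member and 35.7% at all TSSs. Motif 1, another core promoter element, was found at lncRNA:CR44517, beside CG7065, and at no other member, with 3.08% at all TSSs.

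The TATA box TATAAA was in 32.1% of shared and 35.5% of other windows (27.7% of all TSSs), and GAGAG in 24.5% and 25.8% (22.2% of all TSSs). The E-box CAGCTG was in 6 of 53 (11.3%) and 2 of 62 (3.23%), beside 12.3% of all TSSs, and CACGTG in 0 and 1 (2.97%). The lncRNA:enrr and flam windows held none of the 6 motifs marked above, and the Hsromega window held a single CGATA. The median GC content of member windows was 36.8%, beside 34.8% on promoter peaks at no member and 41.3% at TSSs of lncRNA and asRNA genes without a peak. Summit windows are centred on binding and TSS windows on annotation, so their shares are set side by side without a test, and a match is a description of the letters.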

How the data were processed

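ChIP-seq was measured in 1 group of 3 biological replicates. Per the deposited README files, the authors called regions for each replicate against 1 control file, called them again on pooled alignments, and derived the thresholded list from an irreproducible discovery rate analysis. Which aligner, caller and threshold were used is not given in the sources used here. The signal is the authors' own value per region, as deposited, on a scale not described. It is printed for each list, and replicates were compared by rank within their own lists. Neither the −log10 q column deposited beside it nor the dm3 lists entered any result.

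The dm6 summits were joined to Ensembl release 115 TSSs with Python 3.11.15, pandas 2.3.3 and SciPy 1.17.1, counting positions from 1, and sequence came from the RefSeq copy of the same assembly. The thresholded list equals the strongest 2239 pooled regions. A replicate supported a peak when one of its strongest 2239 regions overlapped it by at least 1 bp. Peaks that share an interval share their replicate match, and neighbouring summits in overlapping intervals could share it too. The 115 peaks lie in 112 intervals. Motifs were searched on both strands. Scripts were tested on simulated data.

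Named were the 12 strongest members, up to 12 members with no coding TSS at their strongest peak and all replicates, the 8 strongest asRNA genes, those with several summits, known lncRNAs, 6 of the least supported, and those at the limits, with neighbours. Further neighbours were named after their values were seen. Members and lists were chosen with earlier results of these data known. P-values over genes are not given, since genes are not replicates. Alternatives covered the window, the number of peaks, the overlap rule, the region around brwl and leaving out each replicate.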

Additional observations from a re-analysis of the deposited data

How the results depend on the processing

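The number of members follows the rule. The share of lncRNA and asRNA genes with a promoter peak was 4.37% with 500 bp, 2.29% with 250 bp and 6.74% with 1000 bp, and 1.10% and 2.08% with the strongest 500 and 1000 peaks. Leaving out a replicate, which asks for support from both others, gave 2.66% to 3.19% (65 genes without replicate 1, 68 without replicate 2 and 78 without replicate 3). With the summit placed 1 bp to the left, a reading added after the data were seen, it was 4.41% (108 genes). The share with a coding neighbour was 46.7% with 500 bp and moved to 33.9% with 250 bp. It was 55.8% with 1000 bp (within the counting interval), and ranged from 43.1% to 45.6% when a replicate was left out in this way. The own lists of replicates 1, 2 and 3 gave 42.2%, 45.9% and 43.9%. Mean replicate support was 99.7% at any rank and 51.0% with the strongest 1000 regions of each replicate, and ranged from 80.0% to 85.2% when a replicate was left out. The median signal was 173.3 to 179.3 when a replicate was left out, which keeps the better supported peaks of the same pooled list. Under its other alternatives it was 150.7 to 163.3. The DRE core share ranged from 2.61% to 7.83%, within its counting interval. Asking that a replicate's region hold the summit, or cover at least 50% of the peak, changed the number of supporting replicates for 0 of the 107 members. No paired analysis was possible because there is 1 group, so no replicate number pairs samples across groups; kinds of peak were compared within each replicate. Depth is unknown, the signal has no described scale, and neither an untagged line nor RNA was analysed here, so binding cannot be tied to transcription.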
